A study of Caenorhabditis elegans with 14 samples.

Results

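Chemoreceptor genes of Caenorhabditis elegans with transcripts in early embryos were described across 4 genotypes. The set was chosen by summed count, from WormBase symbols made of sr, 1 or 2 further letters, a hyphen and a number, str- symbols included, when the counts of a gene summed to 50 or more over 14 libraries of all genotypes, so the level itself is no finding. The table held 20392 genes, 1344 of them with such a symbol, and 141 reached the sum of 50. Of these 141, 126 belong to named chemoreceptor families and are called receptor genes here. The other 15 carry a symbol of the same form for another product, among them srgp-1, srrt-1, src-1, src-2, srpa-72, srp-2, srp-6, srp-7, srf-3, srap-1, srlf-1, srlf-15, srlf-24 and srlf-31. The chemoreceptor label therefore held for 126 of the 141 genes.

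Chemoreceptors of nematodes are seven-transmembrane proteins that sit in the cilia of sensory neurons and couple odorants, pheromones and other chemicals to G proteins. They form one of the largest gene families of the worm, grouped into the Str, Sra and Srg superfamilies and several solo families, and many are known for expression in a few sensory neurons. HPL-2 is a worm homologue of the heterochromatin protein HP1, which binds methylated lysine 9 of histone H3, and MET-2 is a histone methyltransferase that places methyl groups on that residue.

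The libraries came from wild-type embryos of the strain N2 Bristol (n = 3), hpl-2(tm1489) embryos (n = 4), embryos with the allele hpl-2-FFAA(px112) (n = 4), and embryos of a strain with met-2(n4256) and hpl-2(tm1489) together on chromosome III (n = 3), here called tm1489, FFAA and the double mutant. The last strain was kept over the balancer hT2, which carries bli-4(e937), let-?(q782) and qIs48, and the labels do not say which of its embryos were taken. All cultures were synchronized and grown at 20 °C, and each library holds the RNA of many embryos, so that fewer cells of a type and less RNA per cell cannot be told apart. The extract protocol also speaks of an exposure to temperatures that it does not name. The source field of the labels names yeast cells, while the organism field and the gene identifiers are those of the worm. Nothing in the labels says that replicates came from separate cultures, so p-values measure the spread between these libraries.

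Library totals ran from 5332725 to 6390870 counts in wild type, tm1489 and FFAA, and from 14313366 to 14840992 in the double mutant. Levels are given as CPM, counts scaled to library size with TMM factors. The level of the hpl-2 transcript was 95.9 ± 5.46 CPM in wild type (SD, n = 3), 4.41 ± 0.693 in tm1489 (n = 4), 65.3 ± 3.29 in FFAA (n = 4) and 10.03 ± 1.31 in the double mutant (n = 3), and met-2 fell from 288 ± 8.83 CPM in wild type to 29.4 ± 1.81 in the double mutant. The 4 FFAA libraries lay in 2 pairs on the first principal components, replicates 1 and 2 apart from 3 and 4. These components came from the 9498 genes that passed the low-count filter described below.

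Receptor transcripts were rare. Of 1294 chemoreceptor symbols in the table, 343 had no count in any library and 825 had 1 to 49 counts, which left the 126 receptor genes, or 9.74%, against 55.1% of all genes at the same sum. In wild type the median receptor gene stood at 0.616 CPM, or 3.67 counts per library, and 26 of the 126 had no count in at least 1 wild-type library. At the threshold, sre-32, sri-20, srd-4 and srv-4 summed to 51 counts, while srx-98 and srt-74 at 49 and srt-63 at 48 stayed outside. The deeper double mutant libraries supplied 47.3% of the counts that the sum used for receptor genes and 40.2% of the counts of all genes. The choice of members thus leaned on that genotype, and results that do not depend on the threshold are given beside those that do.

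The sre family, of the Sra superfamily, reached the threshold most often among the large families, with 17 of 52 symbols. The sri family followed with 10 of 60 and srh, the largest family, gave 22 of 217. Among str symbols 18 of 190 were included, and among srw symbols 3 of 107. Neither srb (12 symbols) nor srn (1 symbol) gave a member. By superfamily the receptor genes numbered 58 of 578 in Str, 26 of 308 in Srg, 23 of 122 in Sra and 19 of 286 in the solo families. Chromosome V carried 70 of the 126 receptor genes, or 55.6%, against 68.2% of all chemoreceptor symbols, and chromosome II carried 31, or 24.6%, against 12.98%. On the autosomes 88 of 124 receptor genes (70.97%) lay in the arms, taken as the outer 50% of each chromosome in the annotation WBcel235, against 61.9% of all chemoreceptor symbols and 44.9% of all genes. The submitters' processing notes name the build ce10, so no coordinates are printed and positions serve only to say which genes are neighbours.

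Scaled for transcript length, the 8 most abundant of the 141 genes were all among the 15 other symbols, led by srlf-1 at 649 CPM per kb over the 4 genotypes. srrt-1, a homologue of an RNA-processing factor, stood at 296 CPM per kb and src-1, a Src-type tyrosine kinase, at 153 CPM per kb. The median level of these 15 genes in wild type was 46.4 CPM, far above the receptor genes. Among receptor genes the order per length was srx-96 at 37.9 CPM per kb, sre-4 at 19.5, str-67 at 6.86, srh-217 at 4.23 and str-148 at 3.35.

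The 2 receptor genes at the head of that order share exons with a gene on the opposite strand. srx-96 overlaps zipt-9, which belongs to a family of zinc transporters and stood at 107 ± 6.74 CPM in wild type, and sre-4 overlaps T13F2.6 at 156 ± 12.5 CPM. The kit keeps strand, but no source used here says whether the counting used it, and whether reads of the partner enter the count of a receptor gene was not tested. Lower in wild type were 2 other receptor genes with an opposite-strand partner, srxa-10 at 0.350% of mcm-6 (672 ± 5.48 CPM) and sre-45 at 0.411% of snx-14 (79.4 ± 2.96 CPM). The level of srx-96 was 30.1%, 30.6% and 30.8% of that of zipt-9 in wild type, tm1489 and FFAA, and 44.2% in the double mutant. sre-4 stood at 12.5%, 11.6%, 12.1% and 14.6% of T13F2.6 in the same order. In all, 21 of the 126 receptor genes share exon bases with another gene, 14 of them on the opposite strand and 7 on the same strand, and counts of the 105 without such overlap are given where they change a statement.

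**Figure D1:**
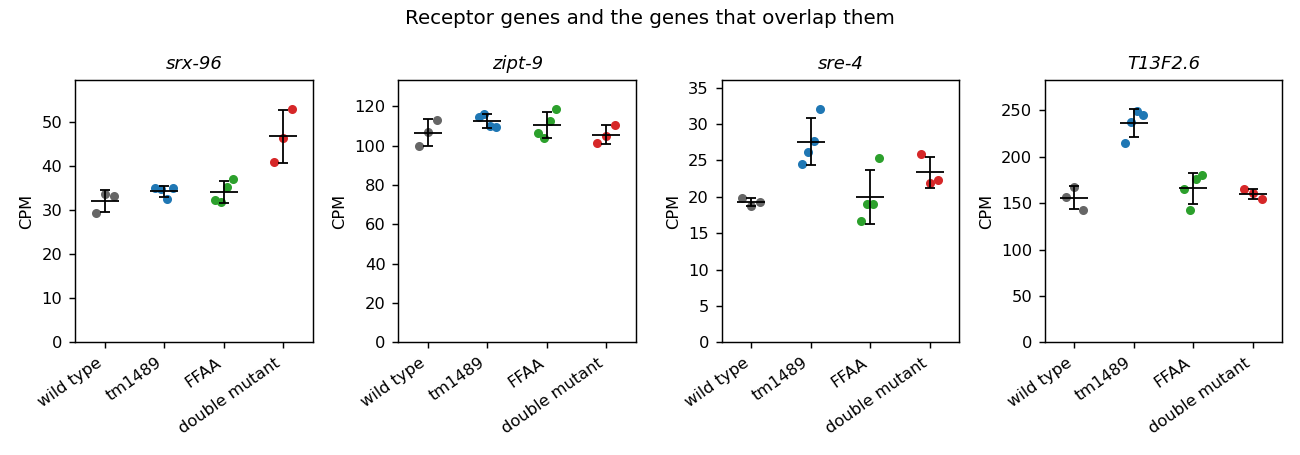
Levels in CPM of the receptor genes srx-96 and sre-4 and of zipt-9 and T13F2.6, whose exons overlap them on the opposite strand, in each library (points) with the mean and SD (black) by genotype. srx-96 was highest in the double mutant while zipt-9 means lay between 106 and 112 CPM, and sre-4 and T13F2.6 were both highest in tm1489.

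The double mutant was compared with wild type first, as it held the most receptor transcript. The 126 receptor genes together reached 162 to 168 CPM in the 3 wild-type libraries and 246 to 278 CPM in the 3 double mutant libraries, which did not overlap and whose mean was 1.56-fold that of wild type. Counted over all 1294 chemoreceptor symbols, a sum the threshold does not touch, the level was 211 ± 2.53 CPM in wild type (SD, n = 3) and 354 ± 32.3 in the double mutant (n = 3). The 1168 symbols below the threshold or at 0 summed to 44.5 ± 1.08 CPM in wild type and 96.4 ± 15.2 CPM in the double mutant. The 105 receptor genes without exon overlap summed to 93.9 ± 2.37 CPM in wild type and 161 ± 12.2 in the double mutant, a ratio of 1.72. No test was made of these sums.

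Every superfamily had a larger sum in the double mutant than in wild type. Over receptor genes the ratio of the means was 1.49 for Sra, 1.52 for Srg, 1.56 for Str and 1.80 for the solo families, and the libraries of the 2 genotypes did not overlap in any of the 4. Families within Str differed in this ratio, with 1.93 for srh and 1.14 for str.

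More receptor symbols were also detected in the double mutant. With all libraries thinned at random to 5332725 counts, 91 to 100 of the 1294 symbols had 3 or more counts in a wild-type library, and 147, 148 and 188 had them in the double mutant libraries. Replicate 3 of the double mutant gave the highest number. Over all genes the mean share with 3 or more counts was 52.0% in wild type and 56.9% in the double mutant at this depth, and over chemoreceptor symbols 7.44% and 12.4%. Unthinned, the means were 106 and 308 symbols.

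**Figure D2:**
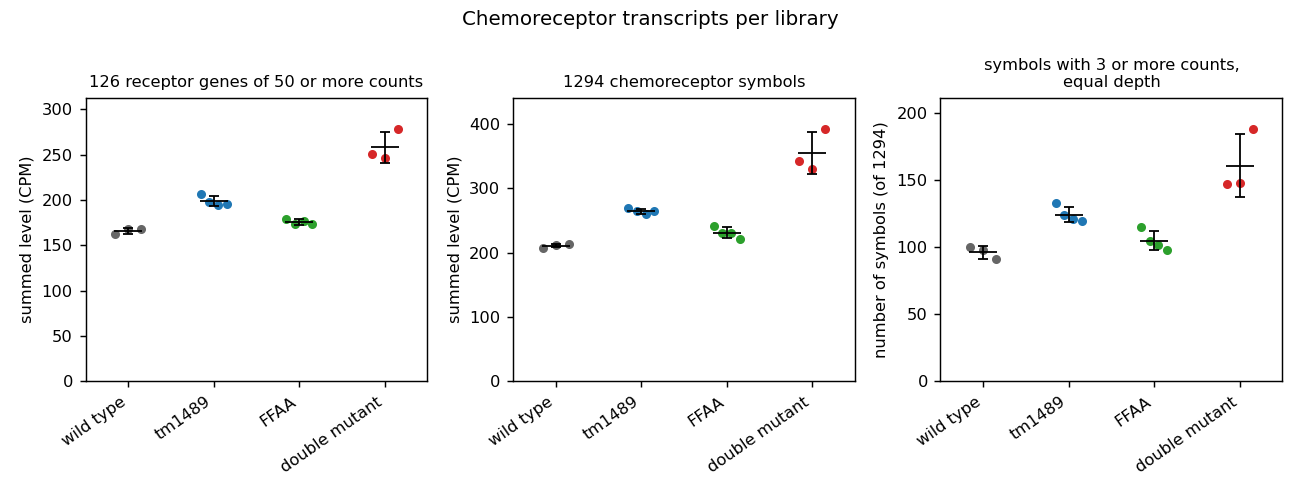
Summed level in CPM of the 126 receptor genes and of all 1294 chemoreceptor symbols, and number of symbols with 3 or more counts after thinning to equal depth, in each library (points) with the mean and SD (black). The double mutant libraries lie highest in each panel, tm1489 libraries above wild type, and FFAA overlaps wild type in the number detected.

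Gene by gene, edgeR's quasi-likelihood test was fitted on all 14 libraries with Benjamini-Hochberg adjustment over every gene tested, and a gene was called at an adjusted p below 0.05. A low-count filter (10 counts or more at the median depth in at least 3 libraries) left 9498 genes, with 38 of the 126 receptor genes among them. Of these 38, 5 passed only because of the double mutant libraries (srh-1, srh-35, srh-233, srr-2 and srx-12). Against wild type, 15 of the 38 were called higher in the double mutant and 0 lower, where 28.7% of the 9498 genes were called higher and 29.4% lower (58.1% in either direction). All 5 genes that passed only through the double mutant were among the 15, and of the other 33 there were 10 called higher and 0 lower. At an unadjusted p below 0.05 there were 18 of the 38, against 62.5% of all genes tested. All 126 could be tested without the filter, among 18587 genes, and then 46 were called higher and 2 lower, against a background of 17.6% and 16.4% (34% in either direction).

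Genes of like abundance were set beside the receptor genes. Among genes of other symbols with 50 to fewer than 500 counts, 33.03% of 3467 were called higher in the double mutant, and among the 123 receptor genes in that range 36.6%. The median log2 fold change was 0.78 for these receptor genes, 0.57 for the other low genes and 0.17 for all genes tested. The share called lower was 1.63% for receptor genes and 5.34% for the other low genes. In 62 of 126 receptor genes every double mutant library exceeded every wild-type library, and in 3 the reverse held, against backgrounds of 28% and 18.1% over all genes tested. With library depth equalized and no filter 36 receptor genes were called higher and 0 lower, against 14.1% and 16.6% of all genes tested in that fit. These last 2 backgrounds include genes below 50 counts, and no share was counted among other low genes. The counts therefore do not set receptor genes apart from genes of like abundance. In the 50 to fewer than 500 range the double mutant had the highest mean in 60.2% of receptor genes and 62.2% of others.

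**Figure D3:**
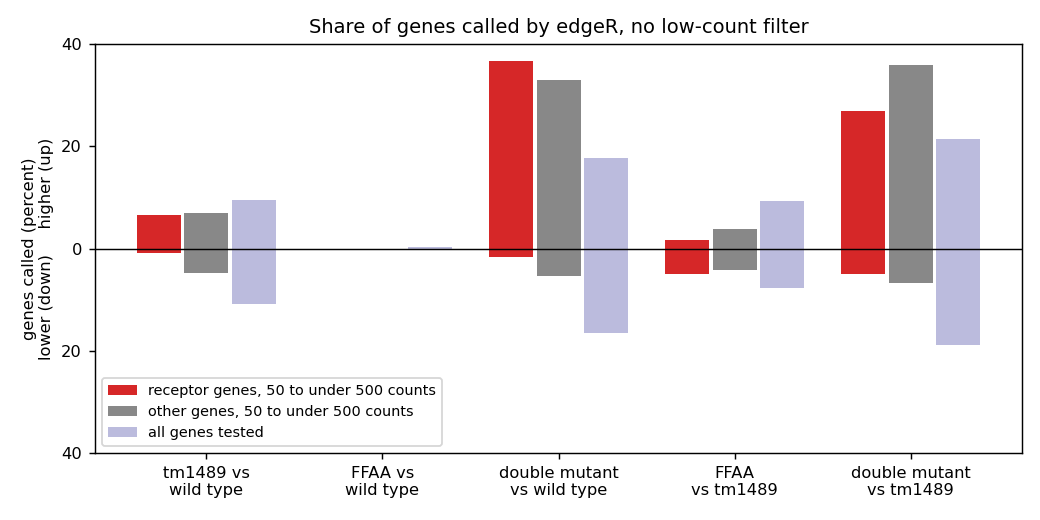
Percentage of genes called higher (above 0) or lower (below 0) by edgeR at an adjusted p below 0.05 without a low-count filter, for receptor genes with 50 to fewer than 500 counts, other genes in the same range and all genes tested, in 5 comparisons. In the double mutant against wild type 36.6% of receptor genes and 33.03% of other low genes were called higher, and in FFAA against wild type no receptor gene was called.

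srh-71, of the Str superfamily on chromosome II (WBGene00005292), was the receptor gene with the smallest adjusted p. It stood at 1.87, 1.35 and 2.14 CPM in wild type, at 1.58, 1.39, 1.72 and 0.717 in tm1489, at 2.03, 1.86, 1.70 and 2.12 in FFAA, and at 5.38, 6.07 and 5.92 in the double mutant. The 3 double mutant libraries were thus above the 11 others, which overlapped one another. The log2 fold change in the double mutant was 1.69 against wild type (SE 0.221, edgeR adjusted p = 4.09e-06) and 2.08 against tm1489 (SE 0.211, adjusted p = 9.16e-08). Over the 14 libraries the genes whose log2 CPM was most like that of srh-71 were sop-2 (Pearson r = 0.969), ins-13 (0.968) and acdh-2 (0.966), among 9497 genes compared. This is a description over libraries that share depth and genotype.

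srh-34 (WBGene00005257) had the same shape. Its levels were 1.70, 1.69 and 2.14 CPM in wild type, 2.52, 2.46, 1.89 and 2.51 in tm1489, 2.37, 1.67, 1.87 and 2.12 in FFAA, and 5.96, 4.46 and 5.42 in the double mutant, a log2 fold change of 1.51 over wild type (SE 0.214, edgeR adjusted p = 1.01e-05). It lies on chromosome V between srh-33 and srh-35, all 3 on the same strand, and both neighbours were called higher as well, srh-33 by 1.25 (SE 0.291, edgeR adjusted p = 0.00124) and srh-35 by 1.43 (SE 0.337, adjusted p = 0.00139) on the log2 scale. srh-33 missed the threshold at equal depth without the filter (adjusted p = 0.0546). srh-35 passed the filter only through the double mutant libraries. This favoured a rise there, and its values do not allow for it. Paralogous receptors can share reads, and no source used here says how the authors' counting treated such reads.

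srh-233 (WBGene00005440), also of the srh family on chromosome V, was near the limit of detection outside the double mutant. It stood at 0.339, 0.506 and 0.330 CPM in wild type, 0.515 to 1.26 in tm1489, 0.509 to 0.845 in FFAA, and 3.06, 2.19 and 3.32 in the double mutant. For comparison, 3 counts correspond to 0.497 to 0.513 CPM in a wild-type library and to 0.202 to 0.210 CPM in a double mutant library. The log2 fold change over wild type was 2.82 (SE 0.381, edgeR adjusted p = 5.93e-06). srh-233 passed the filter only through the double mutant libraries. This favoured a rise there, and these values do not allow for it.

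srr-2 (WBGene00005653), of the solo family srr, passed the filter only through the double mutant libraries. Its wild-type levels were 0.170, 0.506 and 0.165 CPM, its tm1489 levels 0.158, 0.770, 2.06 and 0.179, its FFAA levels 0.676, 0.186, 0.509 and 0.326, and its double mutant levels 2.25, 3.14 and 3.395. Replicate 3 of tm1489 stood far above the other 3, and the double mutant libraries exceeded all others. The log2 fold change was 3.32 over wild type (SE 0.601, edgeR adjusted p = 0.00013) and 1.88 over tm1489 (SE 0.424, adjusted p = 0.000655). Without tm1489 replicate 3 the latter was 2.90. The summed count for membership was likewise reached only through the double mutant counts of srr-2. Both choices favoured a rise there, and its fold changes and adjusted p do not allow for them.

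srz-4, of the solo family srz on chromosome I, and srt-47, of the Srg superfamily on chromosome IV, were both higher in the double mutant than in either wild type or tm1489. srz-4 had 1.70, 1.85 and 3.13 CPM in wild type, 1.89, 1.08, 1.89 and 1.43 in tm1489, 3.89, 3.90, 1.53 and 1.79 in FFAA, and 5.24, 4.02 and 5.34 in the double mutant. Its FFAA replicates 1 and 2 were about level with the lowest double mutant library, and replicates 3 and 4 with wild type. Its rise over wild type was 1.12 on the log2 scale (SE 0.300, edgeR adjusted p = 0.0038), and that of srt-47 was 0.92 (SE 0.263, adjusted p = 0.00583). srx-12 (log2 fold change 2.06, SE 0.480, edgeR adjusted p = 0.0013) and srg-66 (1.52, SE 0.373, adjusted p = 0.00194), both of the Srg superfamily, were also called higher than wild type. Of the 2, srx-12 passed the filter only through the double mutant libraries. This favoured a rise there, and its values do not allow for it.

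srx-96 rose from 29.4, 33.7 and 33.3 CPM in wild type to 41.03, 46.3 and 53.0 in the double mutant, with no overlap. The log2 fold change was 0.54 (SE 0.0926, edgeR adjusted p = 7.21e-05), whereas that of its overlapping partner zipt-9 was -0.013 (SE 0.0578, adjusted p = 0.86). T01D3.3, the nearest gene upstream of srx-96, stood at 1.57 ± 0.396 CPM in wild type and 4.82 ± 0.843 in the double mutant (log2 fold change 1.61, SE 0.317, edgeR adjusted p = 0.000288). Whether reads of this neighbour enter the srx-96 count was not tested.

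Receptor genes that only the unfiltered fit could test included some, such as sri-62 and sre-32, that were nearly silent outside the double mutant. sri-62, of the Str superfamily, had 0, 0 and 1 counts in wild type, 3, 0, 0 and 3 in tm1489, 0, 1, 0 and 0 in FFAA, and 19, 16 and 18 in the double mutant. After allowance for depth its level in the double mutant was 22.98 times that in wild type, with an exact 95% interval of 3.95 to 924 for counting error (edgeR adjusted p = 1.93e-05). sre-32 had 0, 1 and 0 counts in wild type and 9, 11 and 23 in the double mutant, a ratio of 18.6 (95% interval 3.17 to 753, edgeR adjusted p = 0.0002). sru-47, of the Srg superfamily, had 3, 1 and 0 counts in wild type and 36, 34 and 20 in the double mutant (log2 fold change 3.16, SE 0.557, edgeR adjusted p = 3.44e-07). It was not as silent in tm1489, where its fitted log2 fold change over wild type was 1.80 (SE 0.711, edgeR adjusted p = 0.0565). The double mutant exceeded tm1489 by 1.36 (SE 0.370, adjusted p = 0.00105). sri-62, sre-32 and sru-47 reached the summed count for membership only through their double mutant counts. The choice of members thus favoured a rise there, and their ratios, intervals and adjusted p do not allow for it.

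The largest cluster of receptor genes held 5 sre genes on chromosome II, sre-49, sre-50, sre-51, sre-53 and sre-54, when members within 10 kb of each other were joined. In the unfiltered fit sre-50 was called higher in the double mutant than in wild type by 2.22 (SE 0.552, edgeR adjusted p = 0.000385) and sre-51 by 2.49 (adjusted p = 0.00305) on the log2 scale. The fitted values for sre-49, sre-53 and sre-54 were 1.22, 1.22 and 0.82 and did not pass the test. sre-50 and sre-51 reached the summed count for membership only through their double mutant counts, which favoured a rise there. In total 14 such clusters held 34 of the 126 receptor genes. Cluster neighbours did not always have like values: srr-2 shares a cluster with str-81, whose fitted log2 fold change was -0.60 (adjusted p = 0.284).

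srv-4 and srx-92, of the Srg superfamily, were the 2 receptor genes called lower in the double mutant than in wild type without the filter. srv-4 had 1, 6 and 4 counts in wild type and 0, 2 and 3 in the deeper double mutant libraries (log2 fold change -2.24, SE 0.771, edgeR adjusted p = 0.0143). srx-92 stood at 0.848, 1.52 and 1.15 CPM in wild type and 0.509, 0.365 and 0.578 in the double mutant (-1.29, SE 0.493, edgeR adjusted p = 0.03). Both missed the threshold at equal depth, with adjusted p of 0.0581 and 0.138.

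**Figure D4:**
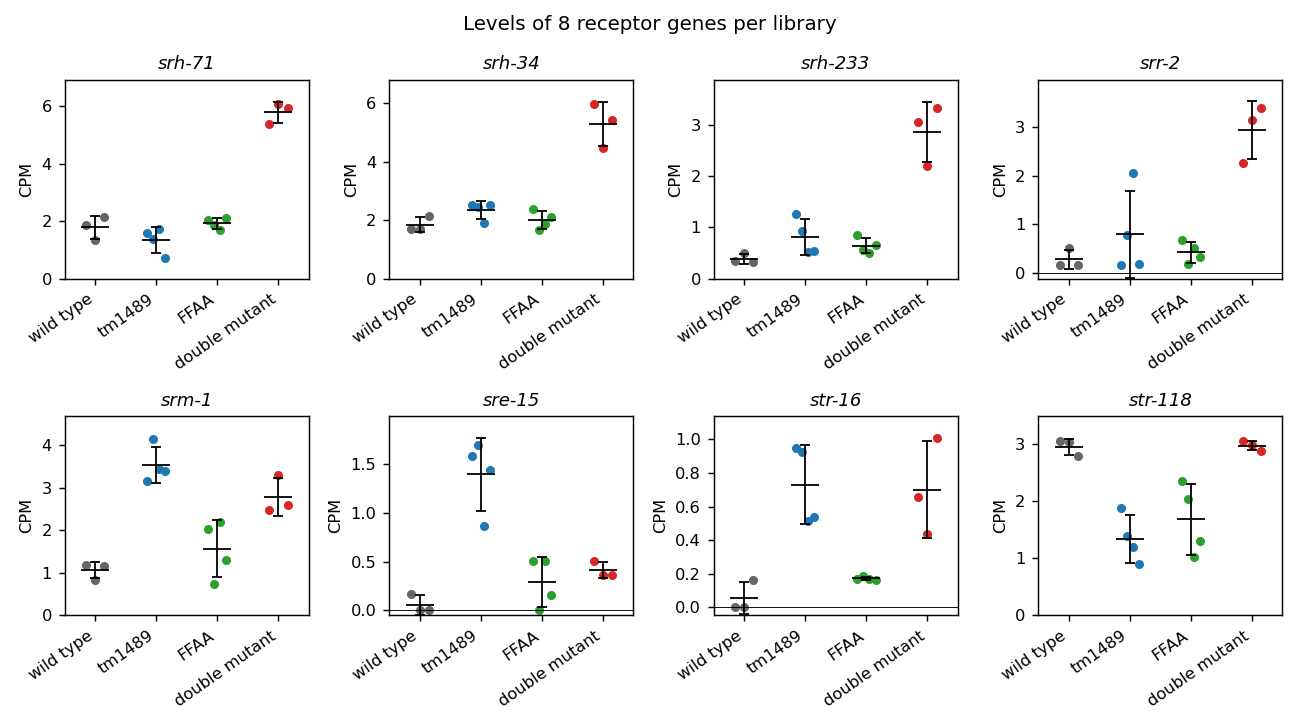
Levels in CPM of 8 receptor genes in each library (points) with the mean and SD (black) by genotype. srh-71, srh-34, srh-233 and srr-2 were highest in the double mutant, srm-1 and str-16 were high in both tm1489 and the double mutant, sre-15 was highest in tm1489, and str-118 was lowest in tm1489.

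In tm1489 the summed level lay between wild type and the double mutant. The receptor genes summed to 194 to 206 CPM against 162 to 168 in wild type, without overlap, a ratio of 1.20, and all 1294 symbols to 264 ± 3.83 CPM (SD, n = 4) against 211 ± 2.53 (n = 3). At equal depth 120 to 133 symbols had 3 or more counts, more than in any wild-type library. The sum over Sra genes was 1.39-fold and over solo families 1.44-fold that of wild type, against 1.12-fold for Str and 1.10-fold for Srg. Of the difference between 27.9 ± 0.844 and 40.7 ± 3.21 CPM in the sre family, most lay in sre-4, which overlaps T13F2.6. The mean of sre-4 went from 19.3 to 27.6 CPM. The other sre receptor genes together also rose, by a larger ratio than sre-4.

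With the filter 3 receptor genes were called higher and 3 lower in tm1489, where 20.2% of all genes tested were called higher and 21.6% lower (41.8% in either direction). Without it 9 were higher and 2 lower among 126, against 9.5% and 10.8% of all genes (20.3% in either direction). Receptor genes of 50 to fewer than 500 counts were called higher in 6.50% and other low genes in 6.95%. Their median log2 fold changes were 0.40 and 0.06. In 27 receptor genes every tm1489 library exceeded every wild-type library and in 4 the reverse held, against 14% and 13.6% of all genes. That background includes genes below 50 counts, and the share among other low genes was not counted.

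srm-1 (WBGene00005638), of the Str superfamily on chromosome IV, was the receptor gene with the smallest adjusted p in this comparison. Its levels were 1.19, 0.843 and 1.15 CPM in wild type, 3.15, 4.16, 3.44 and 3.40 in tm1489, 2.03, 0.744, 2.21 and 1.30 in FFAA, and 2.47, 3.29 and 2.6 in the double mutant. Wild type and FFAA overlapped, and all 7 libraries with hpl-2(tm1489) stood above them. The log2 fold change over wild type was 1.72 in tm1489 (SE 0.317, edgeR adjusted p = 0.000348) and 1.38 in the double mutant (SE 0.315, adjusted p = 0.00108).

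sre-4 (WBGene00011745) stood at 19.9, 18.7 and 19.3 CPM in wild type and 24.4, 26.2, 27.7 and 32.1 in tm1489, a log2 fold change of 0.51 (SE 0.128, edgeR adjusted p = 0.00372). T13F2.6, on the opposite strand, rose by 0.60 (SE 0.0718, edgeR adjusted p = 6.14e-06) in the same comparison. srsx-27, of the solo family srsx, was called higher by 0.95 (SE 0.302, edgeR adjusted p = 0.0281), a call that was lost without the filter and without wild-type replicate 1 or 3 or tm1489 replicate 1. It shares exon bases with srsx-26.

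str-118 and str-67, both of the str family on chromosome V, were lower in tm1489. str-118 (WBGene00006169) stood at 3.05, 3.03 and 2.80 CPM in wild type, 1.89, 1.39, 1.20 and 0.896 in tm1489, 2.37, 2.04, 1.02 and 1.30 in FFAA, and 3.06, 2.997 and 2.89 in the double mutant. It fell by 1.11 on the log2 scale in tm1489 (SE 0.291, edgeR adjusted p = 0.00517), while its level in the double mutant overlapped wild type and exceeded tm1489 by 1.12 (SE 0.253, adjusted p = 0.000663). str-67 fell by 0.52 (SE 0.161, edgeR adjusted p = 0.015), a call that was lost without wild-type replicate 1. srh-195 was called lower by the smallest margin (log2 fold change -0.83, SE 0.327, edgeR adjusted p = 0.0482); it shares exon bases on the same strand with math-37, which fell by 1.15 (SE 0.234, adjusted p = 0.000818), and leaving out any of 9 libraries ended the call.

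In the unfiltered fit the strongest receptor call in tm1489 was sre-15, of the Sra superfamily on chromosome IV. It had 1, 0 and 0 counts in wild type, 10, 11, 5 and 8 in tm1489, 3, 0, 3 and 1 in FFAA, and 7, 5 and 5 in the deeper double mutant libraries. Its level in tm1489 was 25.1 times that in wild type, with a 95% interval of 4.21 to 1020 for counting error (edgeR adjusted p = 2.17e-05). It was lower in the double mutant than in tm1489 by 1.76 on the log2 scale (SE 0.472, edgeR adjusted p = 0.000876). Without its tm1489 counts, or without its double mutant counts, sre-15 would have missed the summed count for membership. The choice of members thus favoured a high level in both genotypes, and these values do not allow for it.

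str-16 had 0, 0 and 1 counts in wild type, 6, 6, 3 and 3 in tm1489, 1 in each FFAA library, and 9, 6 and 14 in the double mutant. The ratio to wild type was 13.3 in tm1489 (95% interval 2.10 to 554, edgeR adjusted p = 0.006) and 12.6 in the double mutant (95% interval 2.08 to 514, adjusted p = 0.00351). str-225 and str-255 had 3 counts each over the 3 wild-type libraries and were called higher in tm1489, with ratios of 6.15 and 5.66 in tm1489 (95% intervals 1.88 to 31.8 and 1.71 to 29.4). Their calls in the double mutant (edgeR adjusted p = 0.00243 and 0.00978) were lost at equal depth (adjusted p = 0.0562 and 0.118). Without the double mutant counts str-16, str-225 and str-255 would have missed the summed count for membership. Without the tm1489 counts str-16 and str-255 would have missed it. The values above do not allow for this choice.

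FFAA differed least from wild type in these sums. Receptor genes summed to 173 to 179 CPM, above the 3 wild-type libraries by a ratio of 1.06, and all chemoreceptor symbols to 230.8 ± 8.66 CPM (SD, n = 4). At equal depth 98 to 115 symbols had 3 or more counts, which overlapped wild type. No receptor gene was called by edgeR with or without the filter, where 0.779% and 0.516% of all genes tested were called in either direction. With the filter 0.547% of all genes were higher and 0.232% lower, and without it 0.307% and 0.21%. At an unadjusted p below 0.05 there were 3 of 38 and 5 of 126, against 9.82% and 6.5% of all genes, and DESeq2 called 0. With FFAA replicates 3 and 4 alone, 1 receptor gene was called, str-118, lower than wild type by 1.34 on the log2 scale (SE 0.369, edgeR adjusted p = 0.0275). The share of all genes called in that fit was not counted, so this call has no background to be read against. Every FFAA library exceeded every wild-type library in 4 receptor genes and was below them in 5, against 3.17% and 2.96% of all genes.

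**Figure D5:**
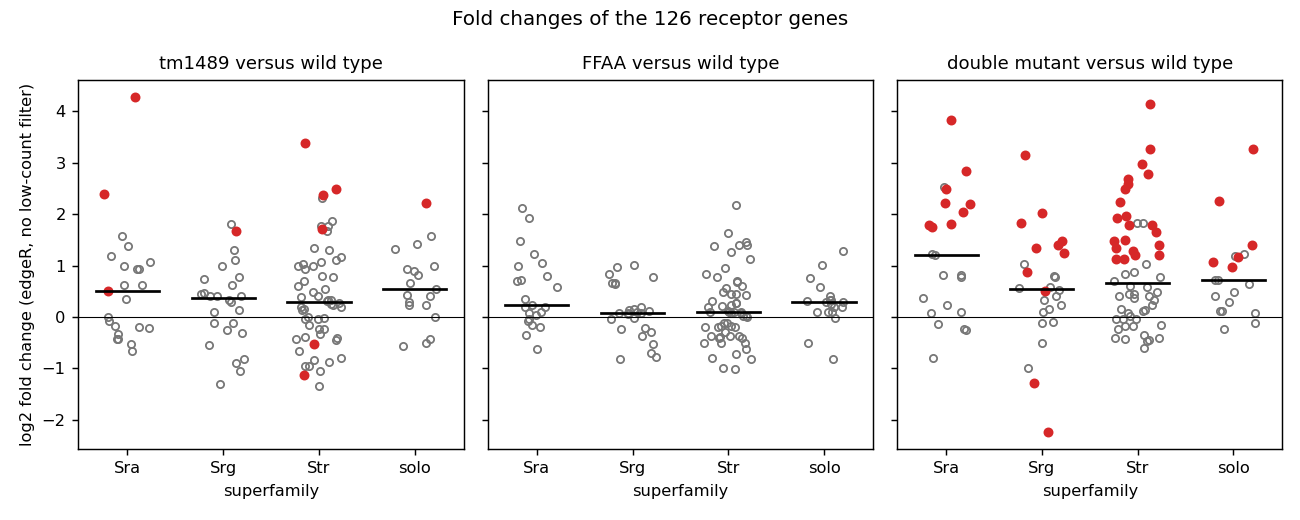
Log2 fold change against wild type of the 126 receptor genes (points) by superfamily in each mutant, from the edgeR fit without a low-count filter; filled red points passed an adjusted p of 0.05 and black bars are medians. In the double mutant 46 were called higher and 2 lower, and none is filled in FFAA. The mean lay above wild type in the double mutant for 80.95% of the 126 receptor genes. Among genes of 50 to fewer than 500 counts it did so for 81.3% of 123 receptor genes and 75.5% of other genes.

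The 2 hpl-2 alleles were compared directly. With the filter 1 receptor gene was higher and 2 were lower in FFAA than in tm1489, where 18.7% of all genes were higher and 16.5% lower (35.2% in either direction), and without it 2 were higher and 7 lower, against 9.41% and 7.72% (17.1% in either direction). Libraries did not overlap in 3 receptor genes that were higher and 11 that were lower, against 8.34% and 7.98% of all genes. srm-1 was lower in FFAA by 1.15 on the log2 scale (SE 0.266, edgeR adjusted p = 0.00293) and sre-4 by 0.46 (SE 0.117, adjusted p = 0.00593). T13F2.6 was lower by 0.51 (SE 0.0656, adjusted p = 3.01e-05) as well. srh-195 was higher by 1.28 (SE 0.287, adjusted p = 0.00247), with 4.22, 2.42, 3.39 and 3.59 CPM in FFAA and 1.10, 1.39, 1.55 and 1.61 in tm1489. Its partner math-37 was higher by 0.90 (SE 0.227, adjusted p = 0.00539).

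The double mutant was compared with tm1489 last. Besides met-2(n4256), the 2 groups differed in library depth and in the balancer hT2 of the double mutant strain. The hpl-2 transcript was also higher in the double mutant than in tm1489, by 1.18 on the log2 scale (SE 0.140, edgeR adjusted p = 6.32e-07). The part of met-2(n4256) alone cannot be told apart from these differences. With the filter 17 receptor genes were higher and 1 lower in the double mutant than in tm1489, where 36% of all genes were higher and 35.2% lower (71.2% in either direction), and without it 34 were higher and 7 lower, against 21.4% and 18.8% (40.3% in either direction). Libraries did not overlap in 36 receptor genes that were higher and 5 that were lower, against 25.3% and 18.3% of all genes. Receptor genes of 50 to fewer than 500 counts were called higher in 26.8% and other low genes in 35.8%. srh-71, srz-4, srh-34 and srh-233 had the smallest adjusted p among receptor genes, with log2 differences of 2.08, 1.62, 1.16 and 1.77 (edgeR adjusted p = 9.16e-08, 7.43e-05, 1.74e-05 and 2.3e-05). Among these, srh-233 passed the filter only through the double mutant libraries, which favoured a rise there. DESeq2 called 12 of the 18.

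Genes with other products took part in these counts. srlf-1 had the smallest adjusted p of the 141 genes, at 571 ± 7.23 CPM in wild type (SD, n = 3), 349 ± 40.1 in tm1489 (n = 4), 517 ± 61.1 in FFAA (n = 4) and 771 ± 51.4 in the double mutant (n = 3), a log2 difference of 1.14 between the last and tm1489 (SE 0.0802, edgeR adjusted p = 1.09e-09). Its profile over the 14 libraries was most like those of hsp-3 (Pearson r = 0.995), unc-112 (0.992) and let-418 (0.991). src-1 fell by 0.28 in tm1489 (SE 0.0469, edgeR adjusted p = 0.000176) and srlf-31 fell by 0.70 (SE 0.119, adjusted p = 0.000166). srrt-1 fell by 0.22 in the double mutant (SE 0.039, edgeR adjusted p = 0.000118). With these 15 genes included, 22 of 53 tested were called higher and 1 lower in the double mutant than in wild type (28.7% and 29.4% of all genes), and 4 higher and 7 lower in tm1489 (20.2% and 21.6% of all genes).

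Genes that act with chemoreceptors were counted from lists, to be read against the shares of all genes called higher and lower, 28.7% and 29.4% in the double mutant and 20.2% and 21.6% in tm1489. Among regulators of chemosensory neuron identity 21 of 28 tested rose and 1 fell in the double mutant, and 4 rose and 14 fell in tm1489, with medians of 0.63 and -0.44 on the log2 scale against medians near 0 for all genes tested (-0.0036 and 0.0041). The zinc-finger gene egl-46 rose from 2.50 ± 1.06 to 19.4 ± 4.90 CPM in the double mutant and die-1 from 580 ± 17.2 to 874 ± 47.6. fozi-1 rose to 16.8 ± 2.53 CPM in tm1489 from 2.18 ± 1.19, while ham-1 fell from 166 ± 5.89 to 103.6 ± 11.8. In the list of signal transduction and receptor trafficking 9 of 22 rose and 3 fell in the double mutant, and 6 rose and 6 fell in tm1489, with pde-1, a phosphodiesterase, from 0.613 to 6.35 CPM in the former and gcy-18, a receptor guanylate cyclase, from 1.23 to 5.07 CPM in the latter.

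Against the same shares of all genes, 28.7% and 29.4% in the double mutant and 20.2% and 21.6% in tm1489, cilium and intraflagellar transport genes rose in 9 of 24 and fell in 3 in the double mutant, and 2 rose and 2 fell in tm1489. dyf-3, a gene needed for sensory cilia, stood at 0.448 ± 0.196 CPM in wild type, 7.32 ± 1.45 in tm1489, 2.58 ± 0.418 in FFAA and 6.15 ± 0.920 in the double mutant, and was called in each mutant (edgeR adjusted p = 1.16e-07, 0.00474 and 3.77e-08). Of 28 tested seven-transmembrane receptors outside the chemoreceptor families, 13 rose and 3 fell in the double mutant, and 7 rose and 0 fell in tm1489. In FFAA 1 of these 28 and 1 of the 24 cilium genes, dyf-3, rose. Of all genes tested 0.547% were called higher and 0.232% lower in FFAA. The receptor called in FFAA was npr-37, a neuropeptide receptor family member, at 4.30 ± 1.24 CPM in wild type, 18.7 ± 1.98 in tm1489, 9.55 ± 0.499 in FFAA and 8.26 ± 1.16 in the double mutant. Pan-neuronal genes rose in 12 of 35 and fell in 5 in the double mutant, and 6 rose and 9 fell in tm1489.

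Marker sums of several cell types differed between genotypes. Counts of markers called are to be read against the same shares of all genes as the lists. These were 28.7% higher and 29.4% lower in the double mutant, and 20.2% and 21.6% in tm1489. The 15 markers of ciliated sensory neurons summed to 15.7 to 15.99 CPM in wild type, 22.6 to 27.3 in tm1489, 17.3 to 20.5 in FFAA and 28.9 to 32.9 in the double mutant, with che-2 and bbs-8 at 0 in wild type. The single gene dyf-3 went from 0.448 to 7.32 CPM in tm1489 within this sum, and 1 of 5 tested markers was called higher there and 4 of 5 in the double mutant. The 12 neuron markers summed to 269 to 280 CPM in wild type and 324 to 368 in the double mutant, of which snb-1 alone held 188 and 262 CPM on average; 3 of 9 tested were called higher and 1 lower in the double mutant. Body muscle markers rose in 6 of 6 tested in the double mutant, with a sum of 46.7 to 54.1 CPM in wild type and 147 to 187 in the double mutant. In tm1489 their sum was 38.9 to 53.8 CPM, with 1 called higher and 2 lower. Epidermal markers rose in 6 of 6 in the double mutant, from 665 to 690 CPM in wild type to 954 to 1150, and stood at 536.5 to 623 CPM in tm1489, with 1 called higher and 3 lower. All 8 germline and oocyte markers rose in tm1489, from 4494 to 4641 CPM in wild type to 5408 to 6197, and their sum was 4313 to 4625 CPM in the double mutant, with 2 called higher and 0 lower. Intestine markers summed to 49.7 to 57.5 CPM in wild type, 34.2 to 47.3 in tm1489 and 55.9 to 67.3 in the double mutant. Of 7 tested, 3 were called higher and 2 lower in the double mutant, and 0 higher and 2 lower in tm1489. Within the double mutant sum act-5 went from 3.02 CPM in wild type to 11.5, while end-1 went from 16.6 to 12.2. Sperm markers summed to under 5 CPM in every library, with msp-3 and msp-10 at 0 throughout, and so did markers of the adult intestine. The part of these cell types in the receptor values was not tested.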

How the data were processed

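RNA-seq of early embryos was deposited as a table of raw counts per gene for 14 libraries, with no normalization, per the file headers. The submitters' processing notes name Trimmomatic 0.39 and ce10; aligner, counting tool and use of strand: not given in the sources used here. The members, the gene lists and the tests were chosen with earlier results of these data known. Counts were tested with edgeR 4.0.16 (filterByExpr, TMM, 4 groups, quasi-likelihood test, Benjamini-Hochberg) in R 4.3.3; DESeq2 1.42.0 was an alternative. Each SE was derived from the fold change and its F statistic. The fit was tested on simulated data. Named genes were the 8 members highest per length, the up to 8 called members of smallest adjusted p per comparison, 2 called genes per list and comparison, the genes at the threshold and the closest profiles to srlf-1; srh-71 profiles, cluster neighbours, overlap partners, genes called without the filter and any other gene named were chosen after their values were seen. Symbols and gene positions came from Ensembl WBcel235. Intervals and the 3-count floor cover counting error only. Of the 15 other symbols, 1 is not reported here.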

Additional observations from a re-analysis of the deposited data

Results flagged for a closer look

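In 46 groups of 4 libraries the highest or lowest library was compared with the spread of the others, and chance alone sets 1 library apart in about 1 of 20 such groups. In 2 genes there was such a library, both times in tm1489 replicate 3. srh-34 stood there at 1.89 CPM, with the other 3 libraries between 2.46 and 2.52 CPM, and srx-96 at 32.5 CPM, with the others between 34.8 and 35.1 CPM. The rise of srh-34 in the double mutant over tm1489 stayed between 1.01 and 1.27 on the log2 scale, and that of srx-96 between 0.34 and 0.53, over every library left out and every other setting run.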

How the results depend on the processing

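Counts of called genes among the 141 moved most with the low-count filter and with the set. With the filter 53 of the 141 could be tested, and with no filter all 141. In the double mutant against wild type 23 were called, 52 with no filter, 49 with a minimum of 50 counts in all and 10 counts in 3 libraries, 38 at equal depth with no filter, 15 in the chemoreceptor families alone and 12 in those without exon overlap. Of all genes tested 58.1% were called with the filter and 34% with no filter. At equal depth with no filter 14.1% were higher and 16.6% lower. For the minimum of 50 and 10 counts no share of all genes was counted in any comparison. In the double mutant against tm1489 27 became 48, 45 and, without exon overlap, 14. There 71.2% of all genes were called with the filter and 40.3% with no filter. In FFAA against tm1489 8 became 13 with no filter, also at equal depth, 3 in the families alone and 1 without overlap. The shares of all genes were 35.2% with the filter and 17.1% with no filter, and were not counted at equal depth. In tm1489 against wild type 11 became 6 and 3 in the families alone and without overlap, where 41.8% of all genes were called with the filter. In FFAA against wild type 0 became 4 with replicates 3 and 4 alone, a fit in which the share of all genes called was not counted. Medians of the log2 fold change moved with the families alone, from 0.10 to 0.28 in tm1489, from 0.33 to 0.47 in the double mutant and from -0.075 to -0.26 between the hpl-2 alleles; without wild-type replicate 3 the double mutant median was 0.45 (0.30 to 0.45 over all libraries left out).

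The summed level of members was 3330, 3092, 3247 and 3648 CPM in wild type, tm1489, FFAA and the double mutant. With library size alone the summed level of members, wild_type, was 3361 CPM, the summed level of members, hpl2, 3152 CPM and the summed level of members, met2_hpl2, 3466 CPM. In the families alone it was 166, 198, 176 and 258 CPM in the 4 groups, without exon overlap 93.9, 112, 96.8 and 161 CPM, and over every chemoreceptor symbol 211, 264, 230.8 and 354 CPM. Symbols detected with 3 or more counts at equal depth numbered 96.3, 124, 105 and 161 on average; unthinned they numbered 106, 136, 113 and 308, with 1 or more counts 281, 360, 325 and 413, and with 5 or more 49.3, 69.5, 58.8 and 91.7. In the 141-gene sum tm1489 lay below wild type, and in the families alone, without overlap and over every symbol above it.

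The call of srgp-1 between the double mutant and tm1489 (0.076) turned to -0.025 with library size alone. The labels do not say whether a replicate number marks a shared batch. Same-numbered libraries deviated together beyond r = 0.1 in 3 of 19 pairs. All 3 were of tm1489 with FFAA, at r = 0.207, 0.129 and 0.248 for replicates 1, 3 and 4, so a pairing of these groups was not excluded. With the replicate block 11, 0, 24, 8 and 28 genes were called in the 5 comparisons. Their order is tm1489, FFAA and the double mutant against wild type, then FFAA and the double mutant against tm1489. Leaving out 1 library gave 8 to 12, 0, 22 to 28, 7 to 10 and 23 to 32. The shares of all genes called with the replicate block or with 1 library left out were not counted. These counts thus have no background to be read against. The median of 3.67 counts per wild-type library limits what can be detected for most receptor genes. Equal depth with no filter, exon overlap and every symbol were added after the data were seen.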
